A study of Caenorhabditis elegans with 2 samples.

Results

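The genes that encode histones, the proteins around which DNA is wound in the nucleus, were examined for peaks of the chromatin protein SET-16 in whole Caenorhabditis elegans larvae. All protein-coding genes of the WBcel235 annotation with a name beginning his- or hil- were taken, which gave 80 genes of 19973 on the nuclear chromosomes. The measurement was chromatin immunoprecipitation followed by sequencing (ChIP-seq), in which DNA crosslinked to a protein is sheared, pulled down with an antibody and sequenced. Every animal came from strain RW12223, in which CRISPR had inserted TY1, EGFP and 3xFLAG tags into the endogenous set-16 gene on chromosome III, and was an L4 larva of 48 hours from a population synchronised by bleaching and L1 starvation. There were 2 biological replicates of that 1 group and no other genotype, stage or treatment, so no contrast and no test between conditions exists. The precipitation was directed at GFP according to the sample descriptions, whereas the antibody field names set-16. Whole animals were used, so a peak strong in few cells and a peak weak in many cells cannot be told apart.

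SET-16 corresponds to the MLL3 and MLL4 methyltransferases of mammals, which place methyl groups on lysine 4 of histone H3 as subunits of COMPASS-like complexes, mainly at enhancers and promoters. Nucleosomes hold the core histones H2A, H2B, H3 and H4, and linker histone H1 binds the DNA between them. In this worm the core genes lie in clusters of divergent H2A/H2B and H3/H4 pairs, are transcribed for DNA replication, and end in a stem loop that the protein CDL-1 (SLBP) binds in place of a poly(A) tail. The variant H3.3 and the H1 genes lie apart from those clusters, and H3.3 is placed in chromatin outside replication.

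The stretches of DNA below lie around 4 of the summits, the position of highest signal inside a peak, and are shown as examples of summits in H1 coding sequence and of summits upstream of core genes. Summits in H3 coding sequence are shown further on. Each has 101 bases of the RefSeq WBcel235 sequence (the same assembly as ce11), written 5′ to 3′, with the summit base in capitals. The first, at chrX:14490608-14490708 on the plus strand, lies in the coding sequence of his-24. The second, at chrV:4754962-4755062 on the plus strand, lies in the coding sequence of hil-4. The third, at chrV:9545425-9545525 on the plus strand, lies between the divergent genes his-35 and his-41. The fourth, at chrV:9546933-9547033 on the plus strand, lies upstream of his-37.
his-24: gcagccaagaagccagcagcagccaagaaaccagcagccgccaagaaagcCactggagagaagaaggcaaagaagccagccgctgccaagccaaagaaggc
hil-4: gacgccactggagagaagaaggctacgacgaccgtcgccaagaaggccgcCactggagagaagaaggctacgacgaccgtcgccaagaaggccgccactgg
his-35/his-41: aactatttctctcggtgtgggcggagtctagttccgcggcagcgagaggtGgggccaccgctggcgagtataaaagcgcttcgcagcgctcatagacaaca
his-37: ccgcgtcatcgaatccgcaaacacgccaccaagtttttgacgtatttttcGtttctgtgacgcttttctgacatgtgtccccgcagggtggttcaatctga
The H1 stretches hold short words that recur in tandem. In hil-4, a run of 94 bases of coding sequence recurs exactly at a shift of 45 bases, and in his-24 the longest such run is 26 bases at a shift of 18. Of the 4 stretches, that between his-35 and his-41 holds the letters TATAAA, the core of a TATA box.

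Of the 80 histone genes, 27 (33.8%, exact 95% interval 23.6 to 45.2) had a summit of the conservative peak list, which the authors made from both replicates together, between 1000 bp upstream of the annotated start and the gene end. Over all 19973 protein-coding genes the share with a summit in the same window was 17.2%. In the list of replicate 1, 32 members (40.0%) had a summit, against 17.4% of all genes, and in that of replicate 2, 20 members (25%) had a summit, against 14.2%. Both replicate lists named 19 of the same members and either list named 33. The interval covers counting error only, and members share windows, so they are not independent.

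The members differed from other genes in 3 measured properties given here, and in their share of repeated sequence, which is described further on. Histone genes are short, with a median of 384 bp against 2027 bp over all genes, so their windows are mostly upstream DNA. They are rich in G and C: the maximum GC content along the window, taken over 100 bp to each side, had a median of 56.2% over members and 49.3% over all genes. Over all genes, its median was 57.2% where a conservative summit was present and 47.8% where none was. Members lie close together, so a summit can fall in the windows of neighbours. The 27 members held 22 distinct summits, of which 9 were shared by a pair of members. Overlapping windows merged, that is 23.7 summits per 100 kb of histone windows against 6.29 per 100 kb over all genes, 28.0 against 6.30 in replicate 1 and 15.1 against 4.65 in replicate 2. The part of GC content in these figures was not tested.

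The summits at histone genes were of ordinary height for the list. Their median signal was 167, against 170 for all 5795 conservative peaks, and 11 of the 22 lay above the list's median. Signal is the value per peak that the authors' caller gave. Its scale and the read depth behind it are not known here, so values are compared within a list. The 22 summits fell in 2 places: 17 (77.3%) in a coding exon of a histone gene and 5 in intergenic DNA nearest to such a gene. Over all gene windows, 56.0% of conservative summits lay in coding exons. With the window limited to the gene itself, 14 members (17.5%) had a summit, against 13.0% of all genes.

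**Figure D1:**
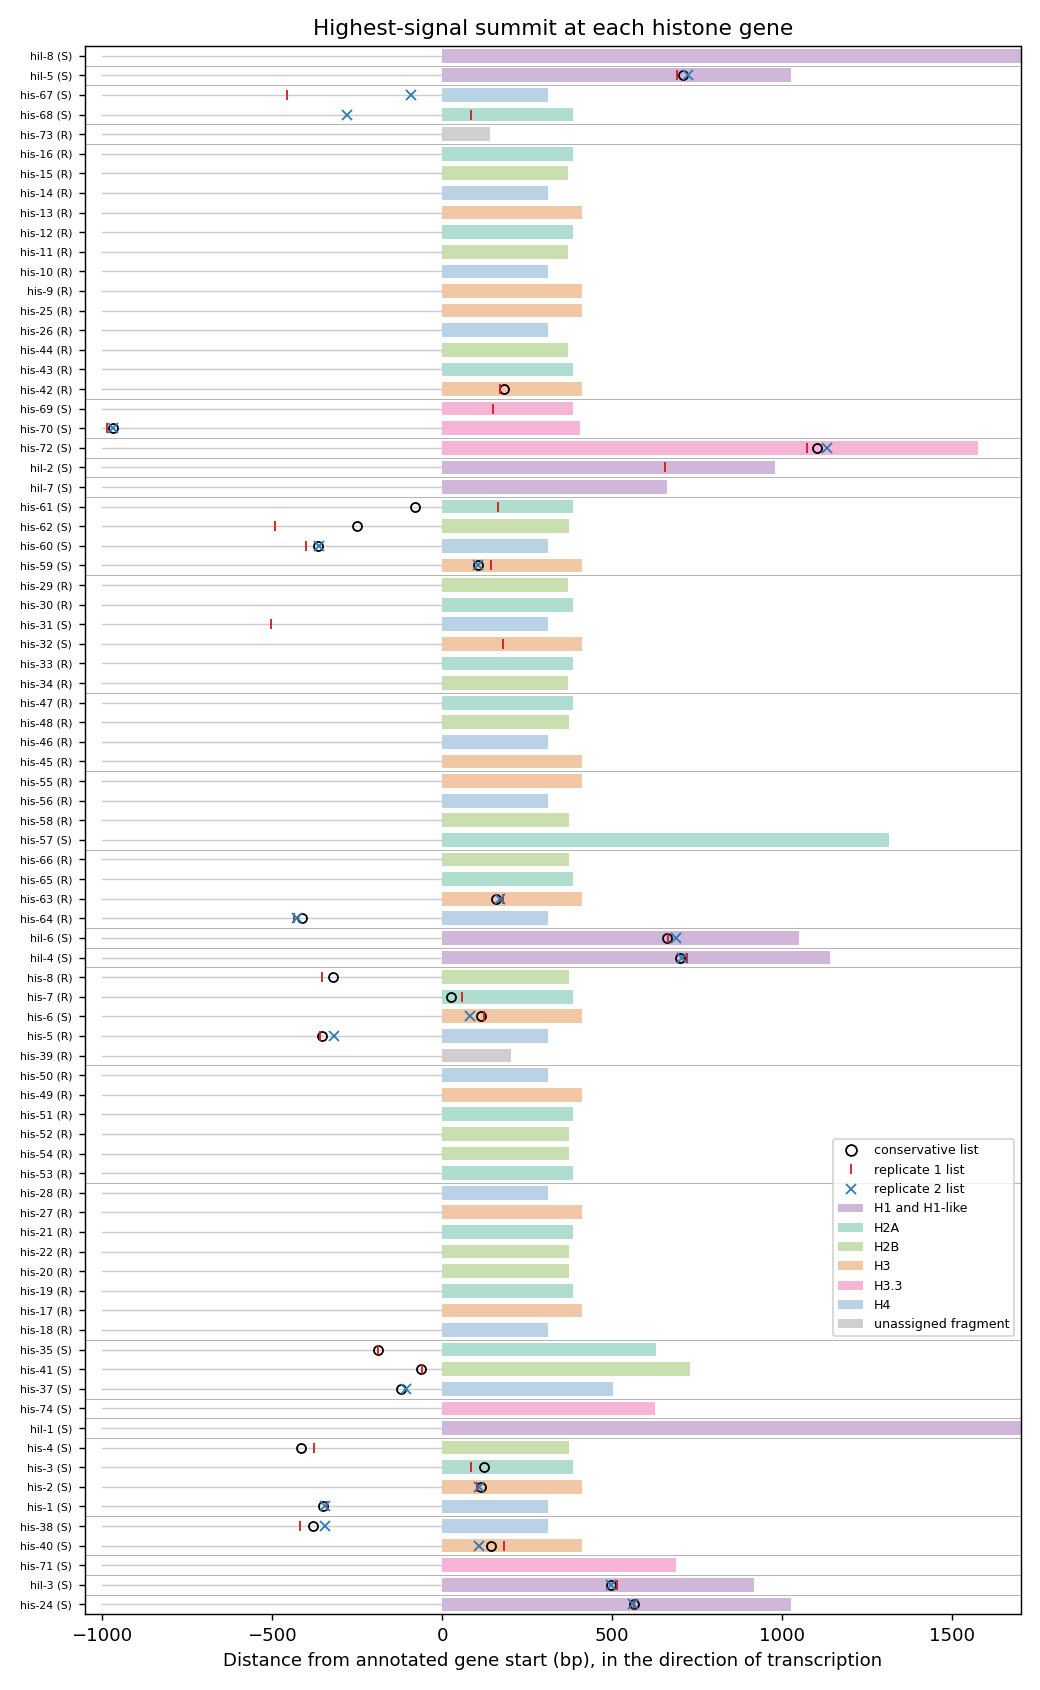
Position of the highest summit at each of the 80 histone genes, in genome order, with distance from the annotated start in bp on the horizontal axis. Bars are gene bodies coloured by histone type (cut at the right edge for hil-8 and hil-1), horizontal lines separate clusters, S and R mark single and repeated copy, and symbols mark the conservative list and each replicate list; long rows without any symbol are the repeated arrays.

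The linker histone genes his-24 and hil-4 held the 2 highest of the 22 summits. The gene his-24 encodes a linker histone of the H1 family, and its summit at +564 bp from the start, in coding sequence, had a conservative signal of 960, above 95.6% of the list. Replicate 1 gave it a signal of 642 and replicate 2 a signal of 322, above 99.0% and 99.1% of the respective ranked lists. It was called in both, and the replicate positions (+563 and +560 bp) lay within a few bases of each other.

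The H1.4 gene hil-4 was next. Its main summit at +699 bp had a conservative signal of 584, with 389 in replicate 1 and 199 in replicate 2, and a second summit at +898 bp in the same interval had 186, with 96.5 and 52.6. The second was called in replicate 1 and not in replicate 2. The GC content within 100 bp of the main summit was 62.2%, the highest of the 22, and 59.2% of the 50-base words there occur more than once in the genome, since the gene repeats its own sequence. The windows of hil-4 and of pgl-3, which encodes a P granule protein, share these summits.

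Another 3 H1 genes had summits in coding sequence in both replicates. The H1.5 gene hil-5 had a conservative signal of 303 at +707 bp, with 189 in replicate 1 and 119 in replicate 2. Its window is shared with rnt-1, the worm RUNX transcription factor gene. The putative H1.6 gene hil-6 had 272 at +660 bp, with 174 and 102. The H1.3 gene hil-3 had 268 at +497 bp, with 176 and 100, and a weak second summit of 10.3 at +698 bp that neither replicate called. In the ranked list of each replicate, these 3 summits stood above 93.2% to 95.6% of peaks.

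The 4 remaining linker genes had no conservative summit. The H1.2 gene hil-2 had a summit in replicate 1 alone, with a signal of 106 at +656 bp. For hil-7 the ranked conservative list, which carries peaks below the authors' threshold, held a peak of signal 65.0 and score 619. The score is a scaled irreproducible discovery rate (IDR) that runs to 1000, and the lowest in a thresholded list was 830. The H1.X gene hil-1, and hil-8, which encodes a protein with the H15 domain of linker histones, each had 1 peak in the ranked list of replicate 2 and none in that of replicate 1. Altogether, 5 of 9 H1 and H1-like genes had a conservative summit (55.6%, interval 21.2 to 86.3), against 17.2% of all genes. There were 6 in replicate 1, against 17.4% of all genes, and 5 in replicate 2, against 14.2%. Each of the 7 conservative summits lay in coding sequence, from +497 to +898 bp.

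The 5 genes of the replacement histone H3.3 split. The H3.3 type 2 gene his-72 had a summit in its coding sequence at +1103 bp, with a conservative signal of 181, 122 in replicate 1 and 70.8 in replicate 2, both called. A second summit of 9.22 at +901 bp was called in neither, and Y75B8A.33 shares the window. Its counterpart his-71, H3.3 type 1, had no peak in any list, ranked lists included.

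The H3.3-like gene his-70 had an intergenic summit of signal 154 at -968 bp, before its start, with 74.8 in replicate 1 and 78.4 in replicate 2. It lies near the edge of the 1000 bp window, and within 500 bp his-70 had none. The neighbouring his-69 had a summit in replicate 1 alone, with a signal of 56.3 at +150 bp, and his-74 had none in any list. All 5 genes are of single copy, with at most 3.28% of their 50-base words repeated. Around the his-70 summit, which lies outside the gene, 45.4% of words were repeated.

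Among the core genes, most summits in coding sequence lay in H3. Conservative summits were found in the window of 6 of 15 H3 genes, 6 of 16 H4 genes, 4 of 17 H2A genes and 4 of 16 H2B genes. By position, 6 distinct summits lay in H3 coding sequence, from +107 to +183 bp, and 2 in H2A coding sequence, at +27 and +122 bp, while 0 lay in H2B or H4 coding sequence. The H4 genes were counted mainly through their divergent H3 partner: of the 6 called, 5 shared the summit in H3 and 1, his-37, had its own.

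The pair his-2 and his-1, which encode H3 and H4, had the strongest core summit. It lay at +114 bp in his-2, with a conservative signal of 346, 248 in replicate 1 and 98.1 in replicate 2. The ratio of replicate 1 to replicate 2, 2.52, was the highest of any histone summit. The H2A/H2B pair of that cluster, his-3 and his-4, had a signal of 141 at +122 bp in his-3, with 85 in replicate 1 and, below the threshold, 59.1 in replicate 2.

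Another 3 H3/H4 pairs had a conservative signal above the list's median of 170, and both replicates called each of them. The pair his-40 and his-38 had a signal of 260 at +143 bp in his-40, with 187 in replicate 1 and 79.6 in replicate 2. The pair his-59 and his-60 had 238 at +107 bp in his-59, with 130 and 110. For his-6 and his-5 the value was 235 at +115 bp in his-6, with 137 and 97.7. In each, the summit lay in the same part of the H3 coding sequence, and the H4 partner held none inside the gene.

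The remaining core summits had signals from 89.8 to 150. Within H3 genes, his-63 had 138 at +158 bp, with 68.7 in replicate 1 and 66.4 in replicate 2. His-42 had 125 at +183 bp, with 91.3 in replicate 1 and 44.2, below the threshold, in replicate 2. The H2A gene his-7 had 118 at +27 bp, with 70.2 and, below the threshold, 53.0.

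Of the core summits, 4 lay upstream of genes. The H4 gene his-37 had 150 at -122 bp, before its start, with 104 in replicate 2 and 43.1, below the threshold, in replicate 1. Between the divergent his-61 and his-62, which encode H2A and H2B, the signal was 102, with 27.8 in replicate 1 and 76.9, below the threshold, in replicate 2. The highest summit that replicate 1 called at this pair lay elsewhere, at +164 bp inside his-61, with a signal of 51.4. Between his-35 and his-41, also H2A and H2B, it was 97.6, with 47.0 in replicate 1 and 57.2, below the threshold, in replicate 2. The fourth upstream summit, at -672 bp from the start of his-42, had 89.8 and was below the threshold in both replicates. All 4 stood higher in the ranked list of replicate 2 than in that of replicate 1.

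Some core loci were called in other lists but not in the conservative list. The H3 and H4 genes his-32 and his-31 had a signal of 212 in replicate 1, at +180 bp in his-32, and 303 in the second whole-series list, while the ranked lists of replicate 2 and of the conservative set held no peak there. The H4 and H2A genes his-67 and his-68 had 69.7 in replicate 1 and 49.7 in replicate 2, called at +86 and -279 bp from the start of his-68, and 105 in the second whole-series list. The conservative ranked list held a peak there of score 653, below the threshold.

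The 6 H3 summits share a stretch of coding sequence that spans bases 80 to 190, counted from 1 at the A of the start codon, and all 15 H3 genes encode the same protein as his-2. It is printed for 9 H3 genes, in the sense of transcription, to compare genes with and without a conservative summit. Capitals mark bases that differ from his-2. The genes his-2, his-6, his-59, his-63 and his-42 had a conservative summit in it, and his-49, his-32, his-45 and his-13 had none. In the list of replicate 1, his-32 had a summit inside the stretch, of signal 212 at +180 bp. On WBcel235, his-2 lies at chrV:16042094-16042204 (minus strand), his-6 at chrV:8534788-8534898 (minus), his-49 at chrV:8848022-8848132 (plus), his-59 at chrIV:7488328-7488438 (plus), his-32 at chrIV:8334384-8334494 (plus), his-63 at chrIV:11406672-11406782 (minus), his-45 at chrIV:11326667-11326777 (plus), his-42 at chrII:13828508-13828618 (minus) and his-13 at chrII:13820289-13820399 (plus).
his-2: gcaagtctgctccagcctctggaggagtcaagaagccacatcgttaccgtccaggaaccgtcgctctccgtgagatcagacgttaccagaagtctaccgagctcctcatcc
his-6: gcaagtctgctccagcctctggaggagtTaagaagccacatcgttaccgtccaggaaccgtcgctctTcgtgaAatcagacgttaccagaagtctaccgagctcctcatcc
his-49: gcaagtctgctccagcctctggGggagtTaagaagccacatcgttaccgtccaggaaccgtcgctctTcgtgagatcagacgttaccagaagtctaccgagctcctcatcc
his-59: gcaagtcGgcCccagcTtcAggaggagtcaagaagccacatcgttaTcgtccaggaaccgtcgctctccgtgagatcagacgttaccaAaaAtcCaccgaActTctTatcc
his-32: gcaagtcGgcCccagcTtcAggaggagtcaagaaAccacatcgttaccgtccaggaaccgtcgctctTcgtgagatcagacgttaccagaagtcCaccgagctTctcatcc
his-63: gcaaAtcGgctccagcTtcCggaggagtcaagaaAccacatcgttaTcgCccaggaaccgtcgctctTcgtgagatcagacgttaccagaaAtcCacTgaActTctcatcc
his-45: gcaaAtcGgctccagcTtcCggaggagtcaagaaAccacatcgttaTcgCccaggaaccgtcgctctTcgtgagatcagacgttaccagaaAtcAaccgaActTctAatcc
his-42: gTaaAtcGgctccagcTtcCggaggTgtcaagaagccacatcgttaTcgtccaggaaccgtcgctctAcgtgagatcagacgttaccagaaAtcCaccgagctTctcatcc
his-13: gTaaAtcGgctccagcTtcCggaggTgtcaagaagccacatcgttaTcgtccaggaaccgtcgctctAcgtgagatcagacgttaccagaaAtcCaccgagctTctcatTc
The summit-bearing his-42 differs from his-13 at 1 of 111 bases, and his-63 differs from his-45 at 3. The gene his-32, without a conservative summit, differs from his-59 at 7, and his-6 and his-49 each differ from his-2 at 3.

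GC content of the stretch ran from 52.3% to 56.8% in the 6 H3 genes with a conservative summit there (median 53.7%). In the 9 without, it ran from 51.4% to 55.9% (median 52.3%), so the ranges overlapped. The shares of repeated words overlapped as well, through his-32 alone. The sequence of his-49 is shared by 3 H3 genes (with his-27 and his-17), that of his-13 by 3 (with his-9 and his-25) and that of his-45 by 2 (with his-55). In these 8 genes every 50-base word of the stretch occurs again in the genome. In the 6 genes with a summit, 0 had every word repeated, with shares from 0% in his-59 to 96.8% in his-42. The gene without a conservative summit that was not fully repeated was his-32, with 16.1% of words repeated and the summit in replicate 1 described above. The parts of GC content and of repetition in where the H3 summits lay were not tested.

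Repeated sequence was common in the whole set. A gene was taken as a repeated copy where at least 50% of its 50-base words occur more than once in the genome on either strand, as whole arrays of histone genes have been copied. By this measure 47 histone genes (58.8%) were repeated copies, against 3.29% of all protein-coding genes. Of the 33 single-copy members, 21 (63.6%, interval 45.1 to 79.6) had a conservative summit, against 17.4% of all single-copy genes. Of the 47 repeated members, 6 (12.8%, interval 4.83 to 25.7) had a summit, against 10.3% of all repeated genes. Among the 35 members with every word repeated, 0 had a summit, with an upper interval limit of 10%, against 0.858% of all such genes. The other 12 repeated members held the 6 called.

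In the conservative list the gap was seen in each core type. For H3, 4 of 5 single-copy genes and 2 of 10 repeated copies had a conservative summit. For H4 the counts were 4 of 6 and 2 of 10, for H2A 3 of 5 and 1 of 12, and for H2B 3 of 3 and 1 of 13. The types are not independent, because divergent partners share summits. The 14 single-copy core genes with a summit held 8 distinct summits, and the 6 repeated ones held 5. The summit at his-6 and his-5 counts in both. In replicate 1, 17 of 19 single-copy core genes and 6 of 45 repeated core genes had a summit, and in replicate 2 the counts were 10 of 19 and 3 of 45. By type, replicate 2 gave 4 of 5 and 1 of 10 for H3, and 5 of 6 and 2 of 10 for H4. For H2A it gave 1 of 5 and 0 of 12, and for H2B 0 of 3 and 0 of 13, so H2B showed no gap there. The highest GC content in the window had a median of 56.7% in single-copy core genes and 56.2% in repeated ones. Members with a conservative summit had a median of 14.8% of words repeated, and those without, 100%. Short reads from identical copies cannot be placed uniquely, and the sources used here do not give how the authors treated such reads, so for repeated copies absence of SET-16 and absence of placed reads cannot be told apart. Repeated words were counted over the gene alone and not over the 1000 bp of window upstream. The part of read placement in these counts was not tested.

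**Figure D2:**
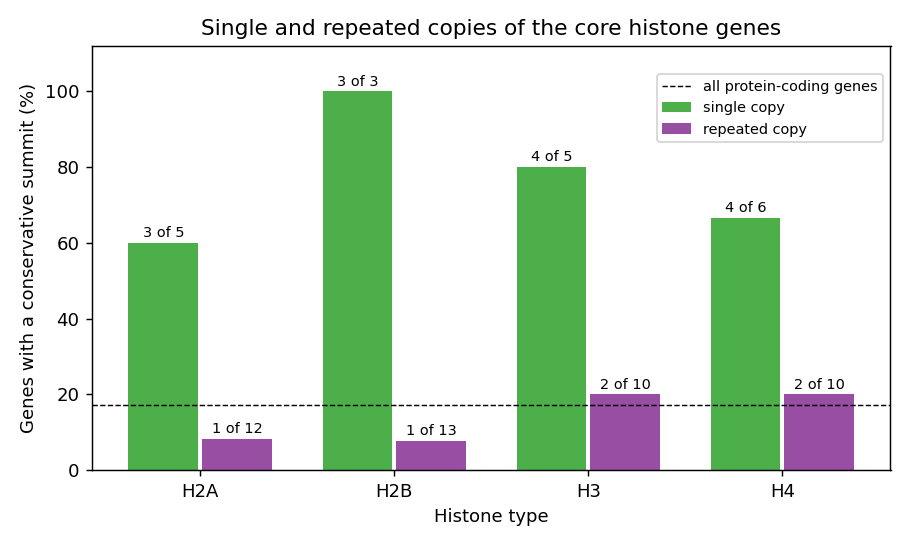
Share of core histone genes with a conservative summit, in %, by histone type, for single copies (green) and repeated copies (purple), with the number of genes over each bar. The dashed line is the share over all protein-coding genes, 17.2%. Single copies stand above it in all 4 types, between 3 of 5 for H2A and 3 of 3 for H2B. Divergent partners share summits, so the types are not independent, and the called single-copy H2A and H2B genes share the same summits.

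With peaks below the threshold included, the share of all 80 members with a summit was near the background, and the copy classes differed. In the ranked conservative list, 34 members (42.5%) had a summit, against 41.6% of all genes. Of the 33 single-copy members, 24 (72.7%) had a summit in that list, and of the 47 repeated members, 10 (21.3%). The share over all genes in that list was not split by copy number. In at least 1 of the ranked lists, 46 of 80 members had a peak, against 54.8% of all genes, and 34 had none. Of those 34, 31 had every word repeated, and the others were his-57, his-74 and his-71. In his-57, an H2A gene with introns that spans 1314 bp, 33.0% of words were repeated, and in his-74 and his-71 0%. Of the 35 fully repeated members, 4 had a ranked peak (his-15, his-47, his-46 and his-56), against 10.7% of all fully repeated genes, so their share was near that background too.

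**Figure D3:**
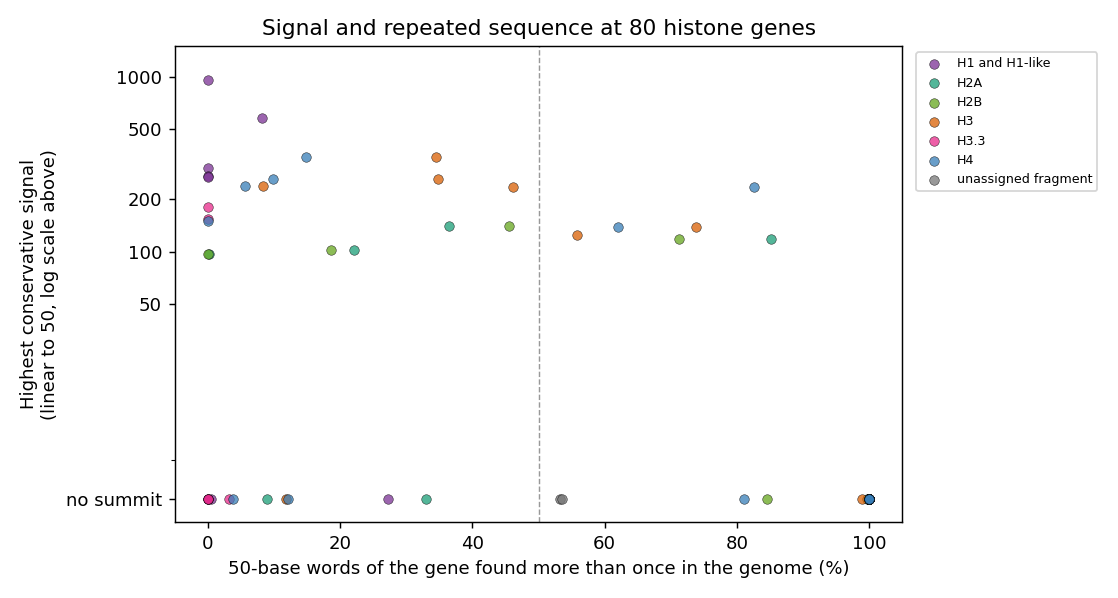
Highest conservative signal in the window of each of the 80 histone genes (vertical axis, log scale above 50) against the share of the gene's 50-base words that occur more than once in the genome, in %, coloured by histone type. Genes without a summit are on the bottom line, where the 35 fully repeated genes overlie each other at 100%, and the dashed line marks the 50% limit between single and repeated copy.

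Along the genome, the 80 genes form 10 large clusters of at least 4 genes, 4 small clusters and 13 lone genes, joined where neighbours lie within 5000 bp. In large clusters 15 of 58 genes had a conservative summit, in small clusters 6 of 9 and among lone genes 6 of 13, against 17.2% of all genes. In large clusters the count was 17 in replicate 1 and 8 in replicate 2, in small clusters 8 and 6, and among lone genes 7 and 6. Copy number split the large clusters further: 9 of their 12 single-copy genes and 6 of their 46 repeated genes had a summit.

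The large clusters fell into 5 with summits and 5 without. The cluster of his-1 to his-4 on chromosome V (16040144 to 16042831) and that of his-59 to his-62 on chromosome IV (7485834 to 7488659) hold no repeated copy, and all 4 genes of each had a summit in their window. The cluster of his-5 to his-8 on chromosome V (8532715 to 8536716), with the histone-fold fragment his-39, had summits at 4 of 5 genes. That of his-63 to his-66 on chromosome IV (11400415 to 11407427) had them at 2 of 4.

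The largest cluster, 13 genes on chromosome II from 13817760 to 13828697, is repeated throughout. It had a summit at 1 gene, his-42, which lies at the end of the array and has 55.8% of its words repeated, against 99.7% to 100% in the other 12. The upstream summit of his-42 described above, at 13829369, lies outside these bounds, at -672 bp from the start of his-42. At that summit 91.4% of words were repeated, and neither replicate called it. The 5 large clusters without a conservative summit hold 28 genes, among them the 8-gene array on chromosome V (8889488 to 8898539) that includes his-17 to his-22 and a 6-gene array (8847393 to 8854053) that includes his-49 to his-54.

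In 31 places neighbouring histone genes are transcribed away from each other, 16 as H2A/H2B, 14 as H3/H4 and 1 as H2A/H4, with 227 to 368 bp between their starts (median 258). A conservative summit lay in a window of 9 of these pairs, and between the starts in 2, his-61/his-62 and his-35/his-41. In the other 7 pairs it lay inside a gene, H3 in 5 and H2A in 2. The sheared fragments ranged up to several times the length of these spacers, per the labels, so a summit separates spacer from gene only as far as the caller resolved it.

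The core genes with introns that had a summit had it upstream. Of the 64 core genes, 60 have a single annotated exon and 17 of those had a conservative summit. The 4 with introns are his-35, his-37, his-41 and his-57, and the first 3 had a summit, each intergenic, at -187 bp from his-35, -61 bp from his-41 and -122 bp from his-37. The genes his-35 and his-41 share the same summit, called in replicate 1 alone, and that of his-37 was called in replicate 2 alone. These 3 are single copies that also lack the inverted repeat described next.

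Sequence downstream of the stop codon differed between the histone types. An inverted repeat with arms of 6 bases that begin GG and a loop of 4 bases, searched within 150 bases after the stop codon, was found in 57 of 64 core genes (89.1%) and in 79 of all 19973 genes (0.396%). It was found in 0 of 9 H1 and H1-like and 0 of 5 H3.3 genes. The 7 core genes without it were his-19, his-35, his-37, his-41, his-47, his-53 and his-68. A match is a description of letters, not a measured stem loop.

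Promoter letters were searched from 250 bases before to 50 after each start, on both strands. TATAAA was present in 44 of 64 core genes (68.8%), against 38.0% of all promoters. The letters GAGAGA were present in 32 (50%), against 21.8%, and CCAAT in 32 (50%), against 45.7%. The starts of 31 divergent pairs lie 227 to 368 bp apart, so the searched stretches of partners overlap. These counts therefore take in the same DNA more than once, and the core promoters are not independent. In H3.3 promoters TATAAA was present in 2 of 5, CCAAT in 4 of 5 and GAGAGA in 0 of 5. In H1 and H1-like promoters the counts were 5 of 9, 5 of 9 and 3 of 9.

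Coding and intergenic summits differed in the ratio of the replicate signals. Signals of both replicates could be matched within 100 bp at 20 of the 22 histone summits and at 5343 conservative summits in all. The ratio of replicate 1 to replicate 2 had a median of 1.52 over histone summits and 1.30 over all (quartiles 0.823 and 1.90), and 13 of 20 histone summits lay above 1.30. At the 15 in coding exons it ran from 1.03 to 2.52, with a median of 1.72. At the 5 intergenic ones it ran from 0.362 to 0.954, with a median of 0.497, so the ranges did not overlap. The ratio is of signals from lists of unknown scale, so positions within the ranked lists were compared as well. The share of peaks below a summit was higher in replicate 2 at 9 of the 15 coding summits and at 5 of the 5 intergenic ones. The ranked list held 25790 peaks in replicate 1 and 35606 in replicate 2. A share below therefore depends on list length too, and ranks counted from the top were not compared. The difference, replicate 2 minus replicate 1, ran from -8.80 to 4.80 percentage points in coding exons and from 6.50 to 23.1 in intergenic DNA. Over all conservative summits the medians were 1.48 in coding exons (2433 summits, 73.8% above 1) and 1.15 in intergenic DNA (1668 summits, 56.5% above 1). GC content within 100 bp of the summit had a median of 54.7% at the 15 coding summits and 51.7% at the 5 intergenic ones, and its part in the ratios was not tested.

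**Figure D4:**
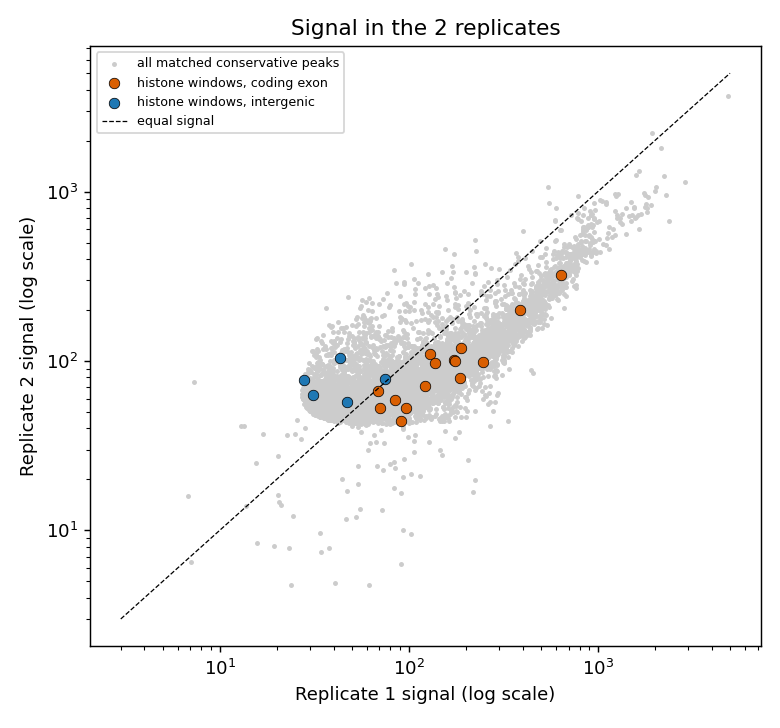
Signal in replicate 2 against signal in replicate 1, both on log scales, at the 5343 matched conservative summits (grey) and at the 20 matched summits in histone gene windows, coloured by place. The dashed line marks equal signal. The 15 histone summits in coding exons lie on the replicate 1 side of it and the 5 intergenic ones on the replicate 2 side.

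By the authors' threshold, replicates 1 and 2 both called 12 of the 22 histone summits. Replicate 1 alone called 6, replicate 2 alone called 1, at his-37, and 3 were called by neither. All 9 summits of highest signal were called in both.

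Genes that handle histones were looked at beside the histone genes. Of a list of 17 genes for histone mRNA processing, variants and chaperones, 3 had a conservative summit, with 3 in each replicate list, against the 17.2% of all genes given above. The ASF1 chaperone gene unc-85 had a signal of 319 at -330 bp from its start, with 131 in replicate 1 and 187 in replicate 2. The summit at lin-53, which encodes the RbAp48-like histone-binding protein, had 201 and lay nearest to the start of nra-2, with 148 in replicate 2 and no call in replicate 1. The H2A.Z gene htz-1 had 101 at +368 bp in its coding sequence, with 124 in replicate 2 and no call in replicate 1.

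In replicate 1 alone, the chromatin assembly factor gene chaf-1 had a signal of 73.9 and the FACT subunit gene hmg-4 had 106. Neither the conservative nor a replicate list had a summit in the window of cdl-1, which encodes the stem loop binding protein, of the CENP-A genes hcp-3 and cpar-1, or of asfl-1, chaf-2, rba-1, hira-1, xnp-1, nasp-1, nasp-2, spt-16 and hmg-3.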

How the data were processed

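ChIP-seq peak lists of 2 biological replicates of 1 group were analysed. The authors deposited 8 lists on ce11: for either replicate a ranked list and an IDR-thresholded list, and for the libraries together 2 such pairs. Per the deposited readme, they came from filtered alignments set against a control experiment. Each deposited peak has a signal, whose scale is not stated, and a score, a scaled irreproducible discovery rate of at most 1000. The lowest deposited score in the thresholded lists was 830. The treatment of reads that map to several places is, like the aligner, caller and versions, not given in the sources used here. Since the depth of reads is not known, no interval for a signal was made.

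Genes came from Ensembl release 115 and symbols and product names from RefSeq, matched by identical coordinates for 80 of 80 members. This was needed because 22 members carry the name of a repeated copy in Ensembl. Histone types were taken from product names and checked for 78 members by protein likeness to his-1, his-2, his-3, his-4 and his-24, with the same type in 78. The products of his-39 and his-73 name no single type. A gene had a summit if a peak's summit lay from 1000 bp upstream of its start to its end. Words of 50 bases were counted over the genome on both strands, and the counting was tested on simulated sequence. Members joined within 5000 bp formed clusters. Replicate signals were matched within 100 bp in the ranked lists. Shares have exact Clopper-Pearson intervals at 95%, for counting error alone. No test was run, since there is 1 group and members are not replicates. Values in both replicates were given for the 12 highest summits and for all H3.3, H1 and H1-like genes; the other members with replicate values were chosen after their values were seen. The members, the lists and the rule were chosen with earlier results of these data known. The base range shown for H3 was set after the summits were seen. Python 3.11.15, numpy 2.4.6, scipy 1.17.1 and matplotlib 3.10.9 were used.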

Additional observations from a re-analysis of the deposited data

How the results depend on the processing

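The count of histone genes with a summit, 27 in the conservative list, depended most on peak height and on the window. It was 14 with peaks at or above the list's median signal and 14 with summits in the gene body alone. It was 31 in the second whole-series list, 34 in the ranked list, 26 with a window from 500 bp upstream and 28 by interval overlap of 1 bp. Counting summits in or nearest to a histone gene, an alternative chosen after seeing the data, gave 27. With each replicate's list alone, that is, with the other replicate left out, the count of genes ran from 20 to 32, that of distinct summits from 14 to 26 (22 in the conservative list), that of genes in large clusters from 8 to 17 (15), that of repeated copies from 3 to 6 (6) and that of single copies from 17 to 26 (21). The lower value came from replicate 2 each time, and the cause was not tested. The number of repeated copies with a summit was 2 of 41 with words of 100 bases and 9 of 50 with words of 36 bases, since the word length moves genes between the classes, and the single copies then gave 25 of 39 and 18 of 30. Of 26 alternatives, 20 stayed within 1.5 times the count reported. No paired analysis was possible because all samples belong to 1 group. Read depth and signal scale are unknown, which limits every comparison of heights between lists.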
